A study of Homo sapiens with 9 samples.

Results

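The enzymes that finish androgens and related steroids outside the cytochrome P450 steps were followed in H295R cells under 3 culture conditions. The list held 10 genes, namely AKR1C1, AKR1C2, AKR1C3, HSD17B1, HSD17B3, HSD17B4, SRD5A1, SRD5A3, HSD11B1 and HSD11B2, and took every probe set (the group of array probes summarised into 1 value) that the array annotation gave to them. It found 10 probe sets for 9 of the genes, among 33297 probe sets and 18417 genes in all. AKR1C1 had 2 probe sets, each other gene had 1, and 0 were shared between genes. SRD5A3 was not analysed here, because the annotation used assigned no probe set to it.

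H295R is a line derived from a human adrenocortical carcinoma that makes the steroids of all zones of the adrenal cortex. Cells were plated for 24 h in growth medium, which holds serum with insulin, transferrin and selenium per the methods, and were then kept for 48 h in one of 3 media. Normal growth stayed in that medium, serum starvation used medium without serum, and starvation with metformin added 10 mM metformin, a biguanide used against diabetes, to the medium without serum. Each condition had 3 arrays (replicates A, B and C), and the methods describe separate experiments for normal growth and starvation. The metformin arrays are known from the labels alone, which do not say whether they came from separate cultures, so the spread behind p-values that use them may be technical only. The 3 comparisons share arrays: the starved arrays serve as the first or the second group, and the normal growth and metformin arrays each enter 2 comparisons. Less serum and fewer supplements cannot be told apart, and in whole cultures a change in the mix of cells cannot be told apart from a change per cell.

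Marker genes of several cell types were read on every array, as a description only, because levels of different probe sets are not comparable. The mean of 8 adrenocortical markers lay between 9.78 and 10.03 on the log2 scale, where the array medians lay between 6.04 and 6.16. Markers of Leydig cells (4 genes, of which CYP17A1 and HSD17B3 are also in other lists here) had array means of 6.21 to 6.62. That level rested on CYP17A1, also an adrenocortical marker, at 11.28 to 11.43 in the 3 conditions. INSL3 read 6.37 to 6.59, LHCGR 3.47 to 3.89 and HSD17B3 4.13 to 4.16. Markers of chromaffin cells (5 genes) had array means of 5.93 to 6.23, with the chromaffin granule protein CHGB at 7.67 to 7.83 in the 3 conditions. Of these 9 genes 0 passed the test in limma in any comparison, and 1, the receptor gene LHCGR, was lower with metformin at an unadjusted p under 0.05 (-0.42 against starved cells and -0.36 against normal growth). Markers of fibroblasts, endothelial cells, immune cells and hepatocytes had array means of 4.28 to 5.08, and 0 of these genes passed the test in limma in any comparison (1 fibroblast gene was lower against normal growth at an unadjusted p under 0.05). In starved cells with metformin, 1 adrenocortical marker, MC2R, the receptor for ACTH, was higher than in starved cells (log2 change 1.02) and 1, NR5A1, the steroidogenic factor, was lower (-0.46). MC2R read 5.13 under normal growth and 5.32 in starved cells, below the array medians, and 6.34 with metformin. In this comparison 10 of 15 alternatives called at least 1 adrenocortical marker. Against normal growth 1 marker was higher and 3 were lower. The part of these shifts in the results for the enzymes was not tested. Of the arrays, metformin replicate C lay farthest from its group mean (SD of its deviations over all probe sets 0.207) and starved replicate B lay farthest among the starved arrays (0.174 against 0.131 for the other two).

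Late steroid enzymes set which hormone a cell releases. Androstenedione and dehydroepiandrosterone leave the P450 steps as weak androgens, and enzymes that reduce or oxidise single keto and hydroxyl groups turn them into testosterone, dihydrotestosterone and inactive metabolites. The AKR1C enzymes are soluble aldo-keto reductases that mostly use NADPH, the HSD17B and HSD11B enzymes act on the positions that switch sex steroids and glucocorticoids on or off, and the SRD5A enzymes reduce the steroid ring that makes testosterone into dihydrotestosterone. In the adrenal, AKR1C3 is the member known for forming testosterone.

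The AKR1C genes lie side by side on chromosome 10 and resemble each other, so the stretches upstream of their start sites are shown before their values. Each sequence holds the 250 bases before a start site from RefSeq (GRCh38.p14), written 5′ to 3′ on the strand of the gene. Capitals in AKR1C1 mark bases that differ from or have no partner in the AKR1C2 window in a pairwise alignment. Capitals in the other sequences mark bases that differ from or have no partner in the AKR1C1 window. Bases at the end of a window can lack a partner only because the windows are offset. The positions are chr10:4963165-4963414 on the plus strand for AKR1C1, chr10:5003858-5004107 on the minus strand for AKR1C2, and chr10:5048531-5048780 and chr10:5094164-5094413 on the plus strand for the 2 start sites of AKR1C3.
AKR1C1: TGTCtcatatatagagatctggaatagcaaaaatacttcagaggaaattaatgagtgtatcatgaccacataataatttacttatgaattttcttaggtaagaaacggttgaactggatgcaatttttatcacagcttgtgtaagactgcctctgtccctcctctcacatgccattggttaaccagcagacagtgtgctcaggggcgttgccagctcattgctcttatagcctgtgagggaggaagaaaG
AKR1C2: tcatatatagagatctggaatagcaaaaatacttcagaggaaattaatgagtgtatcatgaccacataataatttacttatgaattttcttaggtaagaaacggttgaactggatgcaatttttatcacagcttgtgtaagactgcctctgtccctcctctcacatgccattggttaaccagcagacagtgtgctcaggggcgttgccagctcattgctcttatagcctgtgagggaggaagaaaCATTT
AKR1C3 start 1: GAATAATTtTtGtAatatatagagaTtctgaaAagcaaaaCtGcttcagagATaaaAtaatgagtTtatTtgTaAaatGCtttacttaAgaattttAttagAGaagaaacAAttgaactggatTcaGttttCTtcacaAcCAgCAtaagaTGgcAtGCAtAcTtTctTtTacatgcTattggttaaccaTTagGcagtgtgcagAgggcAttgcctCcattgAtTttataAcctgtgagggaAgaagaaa
AKR1C3 start 2: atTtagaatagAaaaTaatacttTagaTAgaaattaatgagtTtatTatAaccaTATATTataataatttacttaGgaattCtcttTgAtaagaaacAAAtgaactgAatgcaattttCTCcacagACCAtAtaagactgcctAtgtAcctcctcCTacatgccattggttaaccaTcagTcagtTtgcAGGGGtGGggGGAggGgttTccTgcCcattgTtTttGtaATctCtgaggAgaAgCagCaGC

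The AKR1C1 and AKR1C2 windows shared 1 unbroken run of 245 bases, and 96.5% of the 254 columns of their alignment were identical. Against AKR1C1 the AKR1C3 windows were identical in 72.4% of columns at start 1 and 69.9% at start 2. The window of AKR1C4, the liver member of the family, was identical in 64.0%. Short patterns were searched on both strands of these windows only, so sites farther from a start were not looked for. The core of the antioxidant response element, TGACNNNGC, the AP-1 site, TGANTCA, and the NR5A1 site, CAAGGTCA, had 0 matches in the windows of AKR1C1, AKR1C2, AKR1C3 and AKR1C4. Over all 35116 windows of the same length, 10.91% held the first, 6.57% the second and 1.14% the third, and 1 run of letters can satisfy both the first and the second pattern. Among the other members with a window, HSD17B3 held 1 AP-1 match, and SRD5A3 held 1 match to the AP-1 pattern and 1 to the antioxidant core. How far each probe set reads its own gene alone, given such similarity between genes, was not tested.

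Values below are the deposited log2 expression values, and a step of 1 is a doubling. A level is comparable between conditions for a probe set, not between genes. A gene was called changed at a Benjamini-Hochberg adjusted p under 0.05 from limma over all 33297 probe sets, and AKR1C1 was read from the brighter of its probe sets.

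The 3 AKR1C enzymes had their highest values in the metformin arrays, and the other 6 measured members did not pass the test in any comparison. Against starved cells without metformin, 1 of 9 members was called higher, where 3.14% of all genes were called higher, and 0 of 9 were called lower, where 2.89% of all genes were. Against normal growth, 3 of 9 were called higher and 0 lower, beside 6.15% and 6.36% of all genes. Serum starvation alone called 0 of 9 members in limma, beside 0.0652% of all genes called higher and 0.163% called lower. At an unadjusted p under 0.05 starvation gave 2 of 9 members, beside 9.88% of all genes, metformin against starved cells 3 of 9, beside 23.6%, and metformin against normal growth 4 of 9, beside 28.5%. No member reached a 2-fold difference.

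The conditions were also compared by the overlap of their arrays. The groups did not overlap for 2 of 9 members (22.2%) in starved against normal cells, where 16.5% of all genes did not overlap. They did not overlap for 3 of 9 (33.3%) in metformin against starved cells, beside 30.9%, and for 4 of 9 (44.4%) in metformin against normal growth, beside 35.8%. In this count the members were near the share over all genes in each comparison. The median log2 change of the 9 members was -0.04, 0.01 and 0.0034 in the 3 comparisons, beside -0.00072, -0.03 and -0.02 over all genes.

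**Figure D1:**
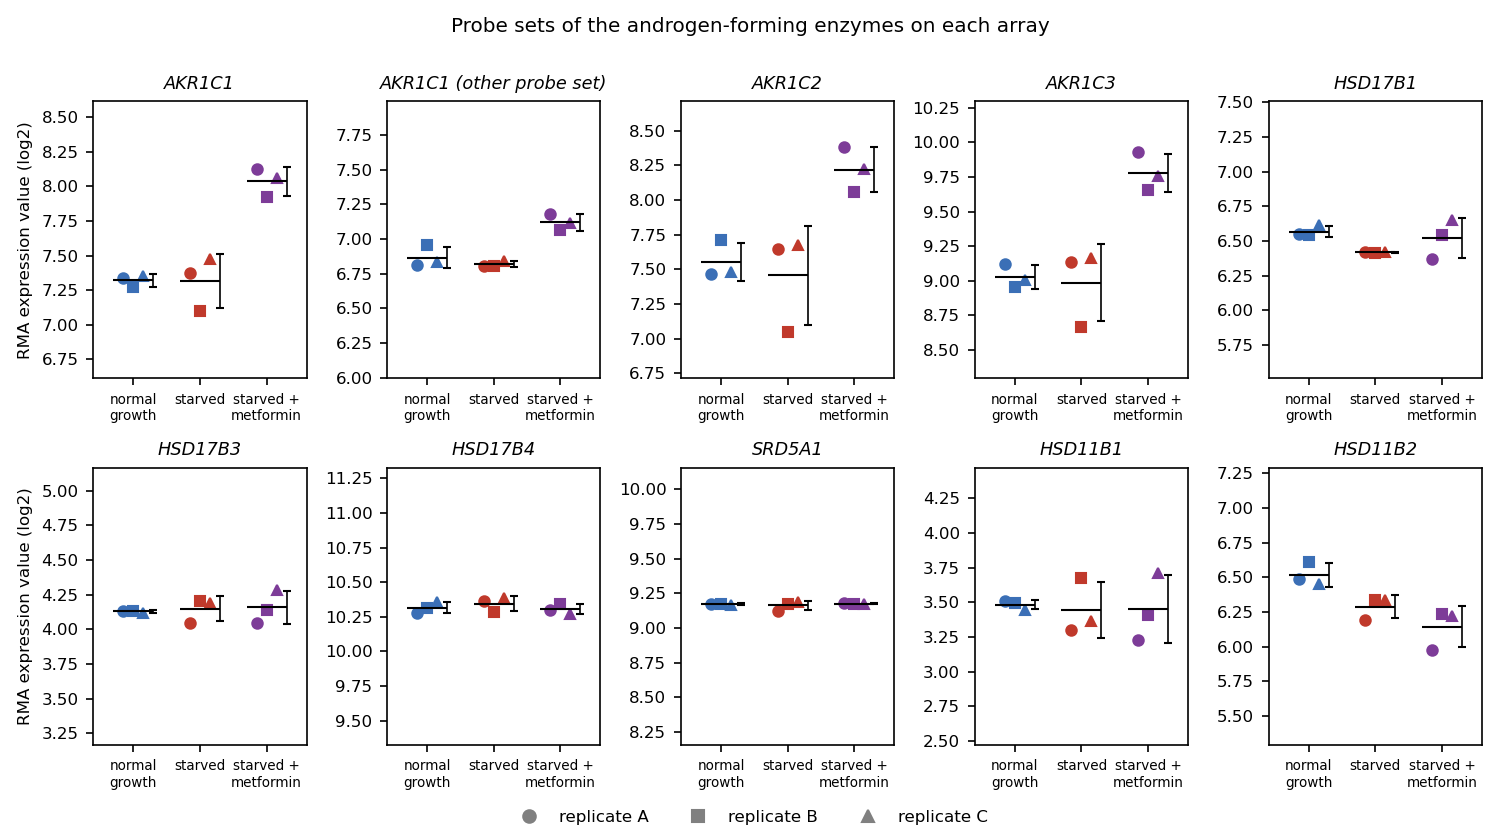
Deposited log2 expression values (vertical axis, each panel spanning the same number of log2 units) of the 10 probe sets on the 3 arrays of each condition (horizontal axis), with replicates A, B and C as circles, squares and triangles, the mean as a line and the SD as a bar. The metformin arrays lie above all other arrays for AKR1C1, AKR1C2 and AKR1C3. Replicate B is the lowest starved and the lowest metformin array for these 3 genes, with AKR1C1 read from its brighter probe set.

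AKR1C1 inactivates progesterone by reducing its side chain. Its values were 7.34, 7.27 and 7.35 under normal growth, 7.37, 7.10 and 7.48 in starved cells, and 8.13, 7.92 and 8.06 with metformin. All 3 metformin arrays lay above the 6 others, while the normal and starved arrays overlapped. The level with metformin (8.04 ± 0.10, SD, n = 3) was 1.65-fold that of starved cells (7.32 ± 0.19), which is 0.72 on the log2 scale (SE 0.11, 95% interval 0.44 to 1.00; limma, adjusted p = 0.0321). Against normal growth (7.32 ± 0.04) the change was 0.72 (SE 0.07, adjusted p = 0.00637). Starved and normal cells differed by -0.0043 (SE 0.10, adjusted p = 0.999).

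AKR1C1 was the only member called against starved cells, and that call did not hold without any 1 of the 6 arrays. The adjusted p was then between 0.0663 and 0.129, with a change between 0.61 and 0.80. It was also lost with arrays shifted to a common median (0.0623) and in the methods' t-test (0.08999). Without metformin replicate A or any 1 starved array, 0 of all 18417 genes were called.

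The other AKR1C1 probe set gave a smaller difference. It read 6.81, 6.95 and 6.83 under normal growth, 6.81, 6.81 and 6.84 in starved cells, and 7.18, 7.07 and 7.11 with metformin. The metformin arrays were again above all others. The change was 0.30 against starved cells (SE 0.06, adjusted p = 0.0448 from limma) and 0.26 against normal growth (SE 0.06, adjusted p = 0.0647). The difference between the probe sets of AKR1C1 on an array was 0.50 ± 0.18 in starved cells and 0.92 ± 0.05 with metformin, and p was 0.1 in an exact two-sided permutation test of the arrays, the smallest value that 3 against 3 allows.

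AKR1C2 converts dihydrotestosterone into a weak metabolite. Its values were 7.46, 7.71 and 7.48 under normal growth, 7.65, 7.04 and 7.68 in starved cells, and 8.38, 8.06 and 8.22 with metformin. Starved replicate B was the lowest of all 9 arrays, and the metformin arrays lay above all others. With metformin the level was 1.59-fold that of normal growth, 0.67 on the log2 scale (SE 0.11; limma, adjusted p = 0.0216). Against starved cells the change of 0.76 (SE 0.19, 95% interval 0.29 to 1.23) did not pass the test, with an adjusted p of 0.0916. The call against normal growth was lost when any normal growth array or metformin replicate A was left out (adjusted p 0.0574 to 0.0956).

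AKR1C3 reduces androstenedione to testosterone and also acts on prostaglandins. Its values were 9.12, 8.96 and 9.004 under normal growth, 9.14, 8.66 and 9.16 in starved cells, and 9.93, 9.65 and 9.76 with metformin. The metformin arrays lay above the 6 others, and starved replicate B was the lowest of all 9 arrays. The level was 1.68-fold that of normal growth, 0.75 on the log2 scale (SE 0.09; limma, adjusted p = 0.00951). Against starved cells it was 1.73-fold (log2 change 0.79, SE 0.16, 95% interval 0.41 to 1.17), with an adjusted p of 0.0513, just outside the threshold. The call against normal growth was lost without normal growth replicate B (adjusted p = 0.0567) or C (0.0564).

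For these 3 enzymes the order of conditions put metformin first, and normal growth and starvation could not be ordered. The starved mean was below the normal mean by 0.0043, 0.10 and 0.04 with all arrays. Without starved replicate B it was above it by 0.10 for AKR1C1, 0.11 for AKR1C2 and 0.12 for AKR1C3. Replicate B was also the lowest metformin array for all 3 enzymes. It was the lowest normal growth array for AKR1C1 and AKR1C3, and the highest for AKR1C2. Without starved replicate B the metformin change against starved cells was 0.61, 0.56 and 0.63, and 0 of the 3 enzymes were called. In that fit 0 of all 18417 genes were called. In a fit of all 9 arrays all 3 were called against starved cells, with adjusted p of 0.00433, 0.0294 and 0.0105 from limma.

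**Figure D2:**
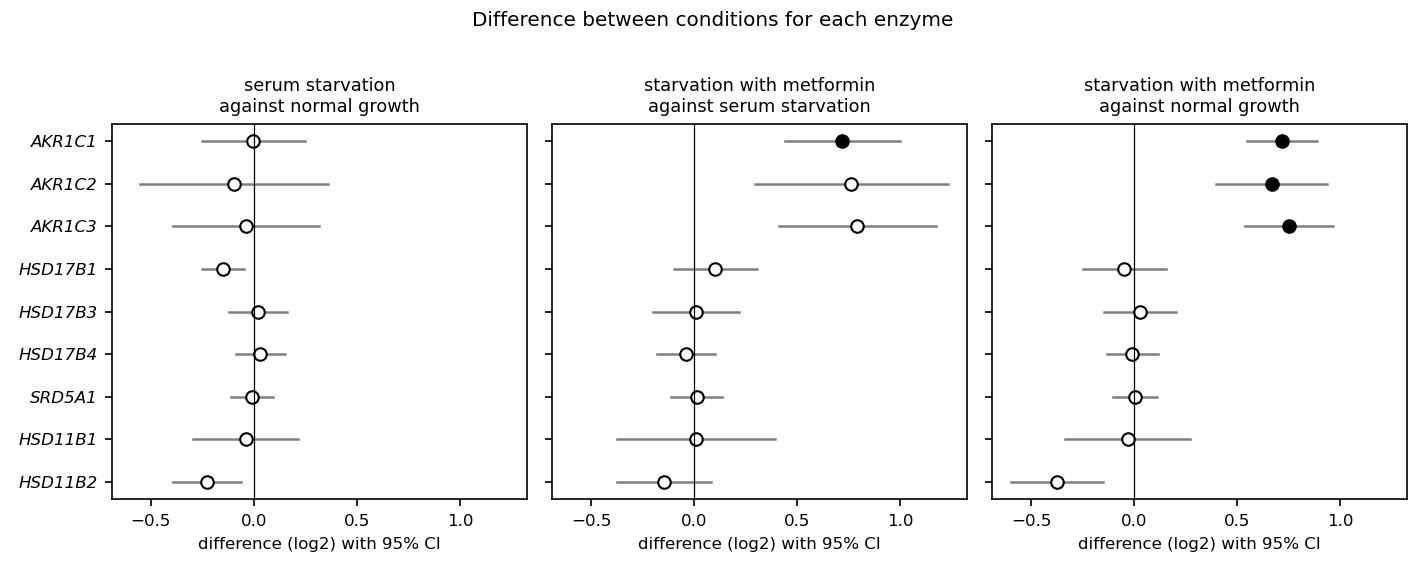
Log2 difference between conditions (horizontal axis) with its 95% confidence interval for each of the 9 measured enzymes, 1 panel per comparison, where filled points mark an adjusted p under 0.05 from limma. The AKR1C enzymes lie between 0.67 and 0.79 in both metformin panels, and the other enzymes lie between -0.37 and 0.10 there.

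The AKR1C genes followed similar courses over the arrays. After each gene was centred on its normal growth mean, AKR1C1 and AKR1C3 differed by a root mean square of 0.0693 log2 units over the 9 arrays, AKR1C2 and AKR1C3 by 0.122, and AKR1C1 and AKR1C2 by 0.137. The probe sets of AKR1C1 differed from each other by 0.287, more than any of these pairs of genes. Among the other genes, SDHAF4 (0.068), CLIP4 (0.0683) and FTL (0.0719) were nearest to AKR1C1. ANKRA2 (0.0994), RPL17 (0.106) and ADPRM (0.109) were nearest to AKR1C2. RPL17 (0.0691), CLIP4 (0.0808) and CCN1 (0.0841) were nearest to AKR1C3. For each AKR1C member the nearest of these genes lay nearer than any other AKR1C member, so the likeness was not particular to the family. All of these distances are descriptions over 9 arrays that share their conditions.

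The remaining AKR1 enzymes did not pass the test. Of 4 measured relatives, AKR1B10, AKR1C4, AKR1D1 and AKR1E2, 0 passed the test in limma in any comparison. At an unadjusted p under 0.05, 2 of 4 were higher in each metformin comparison, and 0 in starvation. AKR1C4, the neighbour of the members on chromosome 10, read 3.10 ± 0.06 under normal growth, 3.02 ± 0.05 in starved cells and 3.14 ± 0.08 with metformin, below the median of every array. Its change against starved cells was 0.11 (95% interval -0.05 to 0.27, adjusted p = 0.422). AKR1B10, a reductase of retinal and other aldehydes, read 3.68 ± 0.12, 3.74 ± 0.11 and 3.99 ± 0.09, also below the median of every array. Its change with metformin was 0.31 against normal growth (adjusted p = 0.0795).

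Of the HSD17B members, none passed the test. HSD17B1 makes estradiol from estrone. It read 6.55, 6.55 and 6.61 under normal growth, 6.42, 6.41 and 6.42 in starved cells, and 6.37, 6.55 and 6.65 with metformin. The starved arrays lay below all normal growth arrays, and the metformin arrays spread over both. The starved change of -0.15 (SE 0.04, 95% interval -0.25 to -0.05) had an unadjusted p of 0.0114 and an adjusted p of 0.376 from limma.

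HSD17B3 makes testosterone in the Leydig cells of the testis. It read 4.13, 4.14 and 4.12 under normal growth, 4.05, 4.21 and 4.19 in starved cells, and 4.05, 4.14 and 4.29 with metformin. All 9 values lay below the array medians and the conditions overlapped. The interval of the metformin change against starved cells was -0.20 to 0.22, and against normal growth -0.15 to 0.20.

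HSD17B4 is a peroxisomal enzyme that oxidises estradiol and takes part in the breakdown of very long and branched fatty acids. Its values ran from 10.27 to 10.38 over the 9 arrays, with means of 10.31 ± 0.04 under normal growth, 10.34 ± 0.05 in starved cells and 10.31 ± 0.04 with metformin. The conditions overlapped throughout. The intervals were -0.09 to 0.15 for starvation, -0.18 to 0.10 for metformin against starved cells and -0.13 to 0.12 against normal growth.

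Some HSD17B enzymes outside the list passed the test. Of 8 measured, 2 were higher and 1 lower with metformin in both comparisons, and 0 passed the test in starvation (1 lower at an unadjusted p under 0.05). HSD17B14, which oxidises estradiol and other substrates, read 6.86, 7.21 and 7.14 under normal growth, 7.08, 7.26 and 7.12 in starved cells, and 8.54, 8.18 and 8.31 with metformin. Its metformin arrays lay above all others, and it was 2.29-fold higher than in starved cells (1.19 on the log2 scale, SE 0.11; limma, adjusted p = 0.0145).

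HSD17B10, a mitochondrial enzyme of isoleucine breakdown and of mitochondrial tRNA processing, moved the other way. It read 10.05, 9.98 and 10.07, then 9.86, 9.95 and 9.88, then 9.20, 9.36 and 9.17 with metformin, below all other arrays. The change was -0.65 against starved cells (SE 0.07, adjusted p = 0.0174 from limma) and -0.79 against normal growth (adjusted p = 0.0058). HSD17B8, which serves mitochondrial fatty acid synthesis, was higher by 0.39 against starved cells (SE 0.07, adjusted p = 0.0421) and by 0.36 against normal growth (adjusted p = 0.0277).

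The calls against starved cells were lost without some arrays, for HSD17B8 without any 1 of the 6 (adjusted p 0.0698 to 0.169) and for HSD17B10 and HSD17B14 without metformin replicate A or any starved array. Without metformin replicate A or any 1 starved array, 0 of all 18417 genes were called. HSD17B13, a lipid droplet protein, differed by 0.97 (SE 0.22) against starved cells with an adjusted p of 0.0776. HSD17B2, which inactivates testosterone and estradiol, differed by -0.17 (95% interval -0.34 to -0.01, adjusted p = 0.234).

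SRD5A1 makes dihydrotestosterone from testosterone, and in the adrenal pathways it also acts on progesterone derivatives. Its 9 values lay between 9.12 and 9.19, and 5 of the 9 arrays held exactly the same value, so only 5 distinct values were seen. The means were 9.17, 9.16 and 9.18 with overlapping conditions. The intervals of the change were -0.11 to 0.09 for starvation, -0.11 to 0.14 for metformin against starved cells and -0.10 to 0.11 against normal growth. The standard errors come from limma, which also draws on the spread of the other probe sets. Against normal growth the SE of the metformin change was 0.0435, where the group SDs were 0.0015 with metformin and 0.0043 under normal growth.

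Of the related reductases SRD5A2, TECR and TECRL, 0 passed the test in limma in any comparison and 0 had an unadjusted p under 0.05. SRD5A2, the form of the prostate and genital skin, read 4.29 ± 0.03 under normal growth, 4.27 ± 0.14 in starved cells and 4.23 ± 0.16 with metformin. SRD5A3 is known for making dolichol from polyprenol, the lipid that carries sugars for protein glycosylation. Of 8 measured genes of that pathway, 0 passed the test in any comparison. At an unadjusted p under 0.05 from limma, 1 was higher and 2 lower with metformin against starved cells, beside 23.6% of all genes. Against normal growth 0 were higher and 2 lower at that p, beside 28.5%, and 5 of 15 alternatives called 1 of these genes.

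HSD11B2 inactivates cortisol to cortisone and also makes keto forms of adrenal androgens. Its values were 6.49, 6.61 and 6.45 under normal growth, 6.19, 6.33 and 6.33 in starved cells, and 5.97, 6.24 and 6.22 with metformin. Starved and metformin arrays lay below all normal growth arrays and overlapped each other. The starved change was -0.23 (SE 0.07, unadjusted p = 0.0149, adjusted p = 0.411 from limma). Metformin against normal growth gave -0.37 (SE 0.09, 95% interval -0.60 to -0.15), 1.30-fold lower, with an adjusted p of 0.0615. This value passed in 5 of the 15 alternatives, with an adjusted p of 0.026 in the fit of all 9 arrays. Between metformin and starved cells the change was -0.14 (95% interval -0.37 to 0.08).

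HSD11B1, the liver and fat enzyme that turns cortisone back into cortisol, read 3.51, 3.50 and 3.44 under normal growth, 3.30, 3.67 and 3.36 in starved cells, and 3.23, 3.41 and 3.71 with metformin. All values lay below the array medians, and the conditions overlapped. The 95% interval of the metformin change against starved cells was -0.38 to 0.39, the widest of the members outside AKR1C.

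Other genes of the pathway were read from lists of related functions. Of 14 measured genes of steroid synthesis and sulfation outside the list, 1 was lower in starvation, 3 were lower with metformin against starved cells, and 5 were lower and 1 higher with metformin against normal growth. HSD3B2, which feeds the androgen branch with androstenedione, read 9.09 ± 0.10 under normal growth, 7.10 ± 0.14 in starved cells and 5.77 ± 0.32 with metformin, and was lower by 1.33 against starved cells (adjusted p = 0.0212 from limma). STS, which frees steroids from their sulfates, was 1.17 lower (adjusted p = 0.0159) and SULT2A1, which sulfates dehydroepiandrosterone, 0.82 lower (adjusted p = 0.0145). These 3 calls were lost without metformin replicate A or any starved array, where 0 of all 18417 genes were called. CYP17A1, which makes the androgen precursors, read 11.43, 11.35 and 11.28 and did not pass the test (change against starved cells -0.07, 95% interval -0.38 to 0.24).

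STAR, which brings cholesterol into mitochondria for the first step, read 11.71 ± 0.05 under normal growth, 11.26 ± 0.05 in starved cells and 11.70 ± 0.17 with metformin. Its starved arrays lay below the 6 others, and neither the starved change (-0.45, adjusted p = 0.0583 from limma) nor the change with metformin against starved cells (0.45, adjusted p = 0.0645) passed the test, while each passed in 5 of 15 alternatives. Aromatase, CYP19A1, which makes estrogens from androgens, was lower against normal growth (log2 change -0.51, adjusted p = 0.0223 from limma) and differed by -0.39 against starved cells (adjusted p = 0.0856). The 1 higher gene was PAPSS2, which supplies active sulfate to SULT2A1 (log2 change 0.49 against normal growth, adjusted p = 0.0276). Its change was 0.43 in starvation alone (adjusted p = 0.123 from limma) and 0.06 with metformin against starved cells (adjusted p = 0.741). Of 5 measured steroid receptor genes and 5 of steroid glucuronidation, 0 passed the test in limma in any comparison. At an unadjusted p under 0.05, 1 receptor gene was lower in each comparison and 1 glucuronidation gene in each metformin comparison. The glucuronidation gene was UGT2B4, which read 4.80, 4.32 and 4.28 under normal growth, 5.10, 4.32 and 4.77 in starved cells, and 3.97, 4.05 and 3.56 with metformin. Its metformin arrays lay below all others, and the change was -0.87 against starved cells (SE 0.23, adjusted p = 0.103 from limma). All of its values lay below the array medians.

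The AKR1C genes are textbook targets of the antioxidant regulator NRF2, and a list of its regulators and targets held 15 measured genes. Whether NRF2 acted on the AKR1C genes in these cells was not tested. In starvation 0 of 15 passed the test in limma and 4 were higher at an unadjusted p under 0.05. With metformin against starved cells 0 passed and 8 were higher at that p, where 23.6% of all genes differed in either direction, with a median change of 0.23, beside -0.03 over all genes. That count of 0 depended on the settings, as 7 of 15 alternatives called 2 to 7 of these genes, all higher. TXN, TXNRD1 and SRXN1 each passed in 6 of the 15, OSGIN1 in 4 and HMOX1 in 2. With metformin against normal growth 6 were higher and 0 lower, with a median of 0.42, beside -0.02. The 4 largest of the called changes were OSGIN1 (0.68, adjusted p = 0.0228), TXN (0.62, adjusted p = 0.0112), TXNRD1 (0.62, adjusted p = 0.0241) and NQO1 (0.49, adjusted p = 0.0101), and each of these 4 calls was lost without at least 1 array. HMOX1 (1.13, adjusted p = 0.0945) and SRXN1 (0.62, adjusted p = 0.0556) did not pass. In starvation alone the change was 0.37 for NQO1, 0.22 for OSGIN1, 0.15 for TXN and 0.04 for TXNRD1. With metformin against starved cells it was 0.12, 0.46, 0.47 and 0.58 in that order.

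The heme oxygenase HMOX1 spread widely with metformin. It read 9.85, 8.67 and 9.86 with metformin against means of 8.31 in starved and 8.33 in normal cells, so replicate B was far lower than A and C. Its change of 1.15 (SE 0.33) against starved cells had an adjusted p of 0.123. Without that array the change was 1.54 (adjusted p = 0.0184 from limma). SRXN1, a sulfiredoxin, read 11.06, 10.51 and 10.96, with B again the lowest. Of 5 measured genes that supply NADPH, the cofactor of the AKR1C reductases, IDH1 was higher against normal growth (log2 change 0.45, adjusted p = 0.0386) and 0 passed against starved cells, where IDH1 differed by 0.51 (adjusted p = 0.0515). Of 8 measured genes of peroxisomal fat breakdown, the pathway of HSD17B4, 0 passed the test in any comparison. At an unadjusted p under 0.05 from limma, 2 were higher and 4 lower with metformin against normal growth, beside 28.5% of all genes. Against starved cells 1 was higher and 3 lower, beside 23.6%. At most 3 of them were called in any alternative against normal growth, and 6 of 15 alternatives held a call. Against starved cells at most 2 were called, with a call in 4 of 15.

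**Figure D3:**
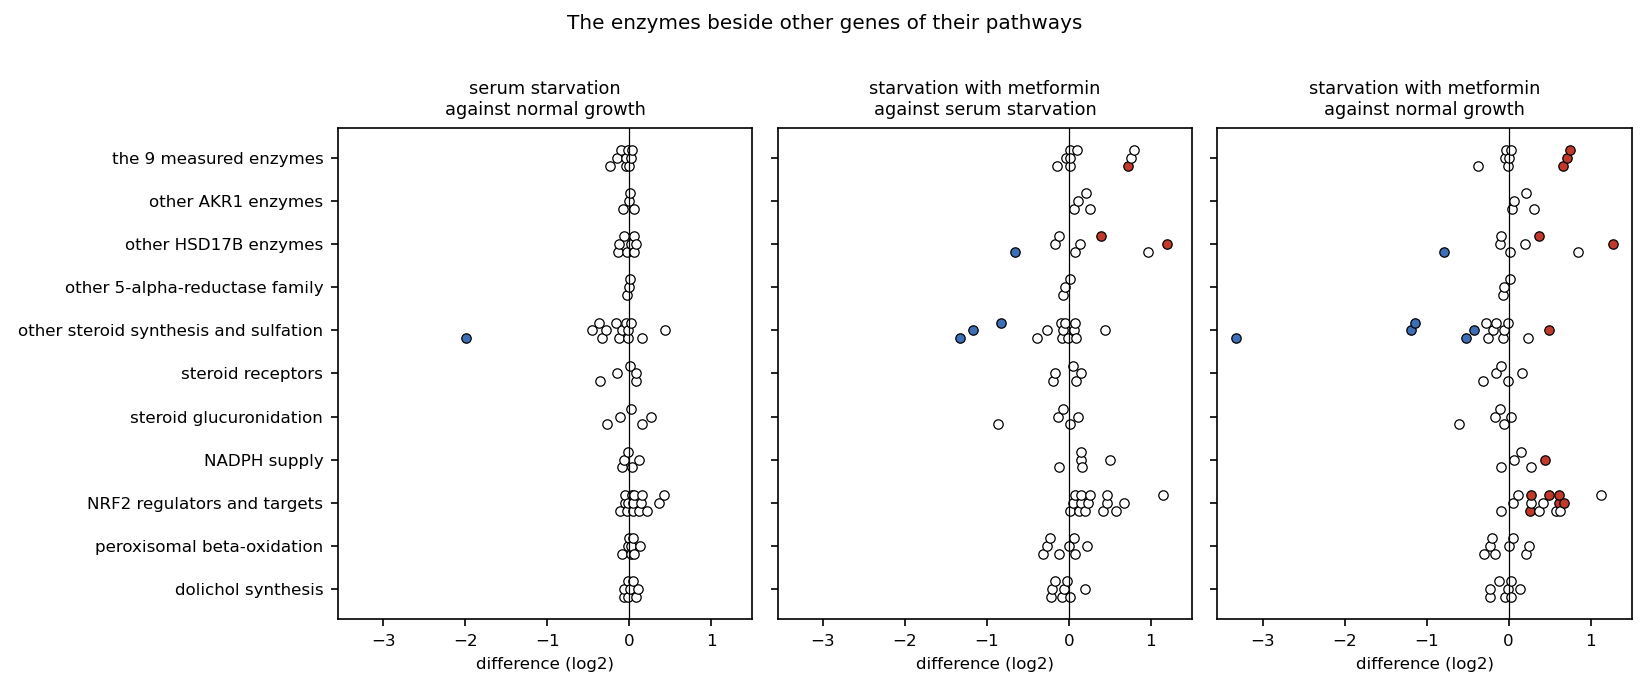
Log2 difference between conditions (horizontal axis) for the 9 measured enzymes and the measured genes of each related list (rows), 1 panel per comparison and 1 point per gene, where red and blue points mark genes higher and lower at an adjusted p under 0.05 from limma. In the metformin panels, the genes of steroid synthesis and sulfation that were called lie mostly to the left, down to -3.32 for HSD3B2 against normal growth. The AKR1C enzymes lie to the right there, as do the NRF2 targets called against normal growth.

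The 3 arrays per condition limit every value. Low signals such as HSD17B3 and HSD11B1 cannot be told from background here.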

How the data were processed

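Total RNA of H295R cells (3 arrays in each of 3 conditions) was hybridised to GeneChip Human Gene 1.0 ST arrays. The values the authors deposited are on the log2 scale. Per the labels, Affymetrix Expression Console and RMA (background correction, quantile normalization and median polish over probes) were named among their tools, as was limma. RMA summaries can compress small differences, and array intensities carry no read depth. The genome build was not given in the sources used here.

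Probe sets were named from the platform annotation (19460 with 1 symbol, 1754 with several, 12083 with none), and each gene was read from its brightest single-symbol probe set. Each pair of conditions (6 arrays) was fitted with limma 3.58.1 in R 4.3.3 over all 33297 probe sets, with Benjamini-Hochberg adjustment and a threshold of 0.05. The fit was tested on simulated data. Sequences come from RefSeq. All members were reported, with up to 4 called genes from each list and fixed pathway neighbours, and for some lists genes with large differences that did not pass. For members called at least once, the 3 nearest genes were named. GSR, EPHX1 and HSD3B1 passed as well and were not described, and PAPSS2 and CHGB were named after their values were seen. The members and lists were chosen with earlier results of these data known. Of 89 listed pathway genes 74 were measured. Alternatives are given in the closing section.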

Additional observations from a re-analysis of the deposited data

How the results depend on the processing

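The count of members called in starvation was 0 of 9 under all alternatives. With metformin against starved cells the count was 1, and became 3 in a fit of all 9 arrays, with dim probe sets (mean under the 40th percentile) left out, with single-symbol probe sets only and with the probe sets of a gene averaged. It was 2 after quantile normalization again and with eBayes set to trend and robust. It was 0 with arrays shifted to a common median, in a Student's t-test of each probe set and with the replicate block (3 of 9 members at an unadjusted p under 0.05 in each, beside 20.1%, 22.7% and 19.1% of all genes). It was also 0 when each array was left out in turn. Without metformin replicate A or any 1 starved array, 0 of all 18417 genes were called. Without metformin replicate B 291 genes were called higher and 282 lower, and without C 406 and 312. Against normal growth the count was 3. It was 4, with HSD11B2 added, in the fit of all 9 arrays, after quantile normalization again, without dim probe sets, with single-symbol probe sets and with probe sets averaged. It was 2 in the Student's t-test, 0 with the replicate block (4 of 9 at an unadjusted p under 0.05, beside 25.2% of all genes) and 1 to 3 when an array was left out. In those fits with an array left out, 171 to 1294 of all 18417 genes were called higher and 187 to 1246 lower. The dim filter removed HSD17B3 and HSD11B1 from the 9 members. AKR1C1, AKR1C2 and AKR1C3 stayed higher with metformin under all alternatives, by 0.49 to 0.88 on the log2 scale. Among the listed pathway genes called against normal growth, HSD17B14, HSD17B10, HSD3B2, STS and SULT2A1 passed whichever 1 array was left out, and the others did not. With the replicate block 0 genes of the whole table were called in each comparison.

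Whether the replicate letters pair the arrays is not known, as the labels do not say what they mark. Deviations from the group means correlated between -0.249 and 0.294 for arrays of 1 letter, so the replicate block value is given here alone. The cause of the lost calls was not tested.

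The direction turned only for differences near 0. After quantile normalization again AKR1C1 in starvation was 0.010, HSD17B3, SRD5A1 and HSD11B1 with metformin against starved cells were -0.029, -0.00176 and -0.023, and HSD17B3, HSD17B4 and SRD5A1 against normal growth were -0.0071, 0.0059 and -0.0059. With a common median HSD17B3, SRD5A1 and HSD11B1 against starved cells were -0.017, -0.013 and -0.018, and SRD5A1 against normal growth was -0.020. Leaving out 1 array in turn turned the direction within these ranges. In starvation they were -0.084 to 0.10 for AKR1C1, -0.21 to 0.11 for AKR1C2, -0.13 to 0.12 for AKR1C3, -0.15 to 0.033 for HSD11B1, -0.0099 to 0.070 for HSD17B3, -0.022 to 0.0096 for SRD5A1 and -0.093 to 0.044 for SRD5A2. Against starved cells they were -0.12 to 0.12 for HSD11B1, -0.055 to 0.064 for HSD17B3, -0.0063 to 0.026 for SRD5A1, -0.12 to 0.042 for SRD5A2 and -0.20 to 0.016 for CYP17A1. Against normal growth they were -0.16 to 0.078 for HSD11B1, -0.11 to 0.029 for HSD17B1, -0.035 to 0.084 for HSD17B3, -0.028 to 0.012 for HSD17B4, -0.14 to 0.022 for SRD5A2 and -0.0042 to 0.074 for AKR1C4.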
